A study of Striga hermonthica with 6 samples.

Results

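Leaf and haustorium of *Striga hermonthica*, both labelled stage 6, were compared across all small RNA loci counted in the series, with 2 leaf libraries set against 2 haustorium libraries out of 6 libraries in all. The libraries were chosen by their labels. *S. hermonthica* is a parasitic plant that draws water and nutrients from the roots of cereals. Every group was of the Kibos ecotype, grown on rice of the variety KitaakeX for 45 days under 16 hours of light at 30 °C. The leaf libraries, replicates 1 and 2, carry the tissue label leaf stage 6. The haustorium libraries of the comparison, replicates 1 and 2, carry the label haustorium stage 6. A further pair of haustorium libraries, replicates 1 and 3, has no stage in the labels. It enters the fit and is otherwise shown only beside the results. The sources define stage 6 nowhere and do not state whether a replicate was a plant of its own. A p-value here therefore covers no more than library-to-library spread, part or all of which may be technical. Haustorium grows into the rice root, and reads of rice were not separated here. Loci carry no gene names in the files, so the tissue labels were not checked against markers.

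Small RNAs of plants fall into microRNAs, cut from single hairpin transcripts of *MIRNA* loci, and small interfering RNAs, cut by Dicer-like enzymes from double-stranded RNA. MicroRNAs guide the cutting or silencing of messenger RNAs. Small interfering RNAs of the longer size class direct DNA methylation to transposons and repeats, and most small RNA loci of a plant genome give rise to them. The haustorium is the organ that joins parasite and host. In the parasitic plant genus *Cuscuta*, microRNAs made at the haustorium act on messenger RNAs of the host.

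ShortStack placed 25056 small RNA loci on the SHERM assembly and marked 68 of them as *MIRNA*. The other 24988 loci are described here. Counted reads came to 7347827 and 8330854 in leaf replicates 1 and 2, against 3031863 and 6952469 in stage 6 haustorium replicates 1 and 2. At least 10 reads were counted at 22245 and 20195 of the 24988 loci in the leaf libraries, against 15446 and 21534 in the haustorium libraries. The TMM factor, which rescales a library so that most loci keep their level, was 1.74 and 0.650 in leaf and 0.835 and 1.78 in stage 6 haustorium. Leaf replicate 1 and stage 6 haustorium replicate 2 thus stood apart from the others. In these 2 libraries the 10 most abundant loci held 6.90% and 8.80% of the counted reads, against 21.6% in leaf replicate 2 and 21.9% in stage 6 haustorium replicate 1.

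Replicates of a tissue were far from alike. Across the 24988 loci, which share libraries and are not independent, the Spearman correlation was 0.248 between the leaf libraries and 0.344 between the stage 6 haustorium libraries. It lay between 0.321 and 0.487 in the 4 pairs of a leaf and a haustorium library. The counts of a tissue's replicates differed far beyond sampling noise, with a chi-square per degree of freedom of 224 in leaf and 118 in stage 6 haustorium. At 800 loci leaf replicate 1 had at least 100 reads and leaf replicate 2 had none, and at 157 loci the reverse held. In stage 6 haustorium, 854 loci had at least 100 reads in replicate 2 and none in replicate 1, and 79 loci the reverse.

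The first readout of the comparison was the number of loci whose tissues did not overlap. In CPM, which scale the reads of a locus to the counted reads of its library, both leaf libraries lay above both stage 6 haustorium libraries at 1186 of the 24988 loci not marked as *MIRNA* (4.75%). Over all 25056 loci, 4.76% were ordered in that way. Both leaf libraries lay below at 2140 loci (8.56%), against 8.55% of all loci. These shares are the background itself, since nearly every locus of the files is included, and they were therefore read against the other ways to pair the 4 libraries. The pair of replicates 1 lay above the pair of replicates 2 at 3078 loci and below at 2056. Leaf replicate 1 and stage 6 haustorium replicate 2 lay above the remaining pair at 14453 loci and below at 1733. By tissue, 3326 loci were ordered without overlap, which is fewer than by replicate number (5134) or by the crossed pairing (16186).

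After TMM the 3 pairings were closer, and the tissues again gave the smallest number. Leaf lay above haustorium at 3089 loci (background 12.4%) and below at 2884 (background 11.5%), together 5973 loci. Pairing by replicate number gave 9314 loci and the crossed pairing 9359. The split between leaf above and leaf below thus changed from 1186 against 2140 in CPM to 3089 against 2884 after TMM. Of the loci above in CPM, 1014 were also above after TMM, which is 85.5% of the first set and 32.8% of the second. For loci below, 1404 were shared, or 65.6% and 48.7% of the sets.

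**Figure D1:**
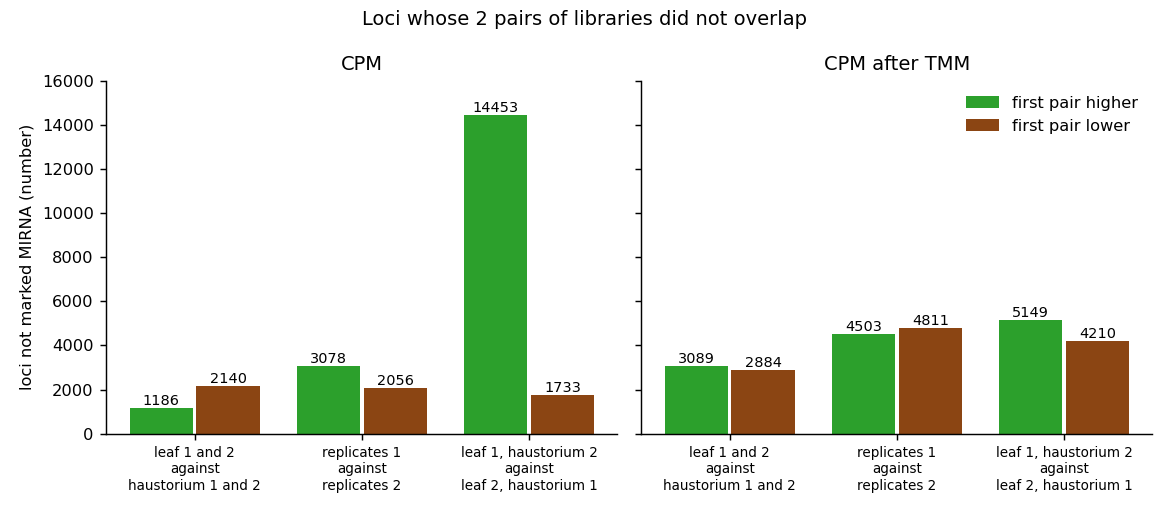
Number of loci not marked as *MIRNA* (vertical axis) at which both libraries of the first pair lay above (green) or below (brown) both libraries of the other pair, for the 3 ways to pair the 4 libraries, in CPM (left) and in CPM after TMM (right). Leaf against stage 6 haustorium gave 1186 and 2140 loci in CPM, and the crossed pairing gave 14453 and 1733.

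A wide gap between the tissues was rare. At 97 loci the lower leaf library was at least 4-fold above the higher stage 6 haustorium library, with 1 CPM added to each (background 0.387%). At 99 loci it was the other way round (background 0.395%). By the same measure, pairing by replicate number gave 252 and 262 loci, and the crossed pairing gave 1229 and 464. After TMM the 4-fold counts by tissue were 148 and 84. None of these loci was marked as *MIRNA* in the tissue pairing.

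Locus by locus, no difference passed the test. Between leaf and stage 6 haustorium, edgeR's quasi-likelihood test called 0 of the 24421 loci it tested (0%), and the smallest adjusted p was 1. Without adjustment, 489 loci had a p under 0.05, where this threshold passes 1221 loci on average when no locus differs. The coefficient of variation between replicates common to all loci was 1.00 in this fit. DESeq2, run on all 25056 loci, called 55 loci higher in leaf (0.22%) and 59 lower (0.235%), and none of them was a *MIRNA* locus. In CPM, 49 of the 55 lay above in both leaf libraries and 48 of the 59 lay below. The calls and this order come from the same counts, so the match between them is a description only. At 85 of these 114 loci at least 1 of the 4 libraries had no read. Of all 24988 loci not marked as *MIRNA*, 1191 and 1742 had no read in leaf replicates 1 and 2. In stage 6 haustorium replicates 1 and 2, 2882 and 1566 of them had none. How many of all loci lacked reads in at least 1 of the 4 libraries was not counted. The median log2 fold change after TMM was 0.05 over the loci not marked as *MIRNA*.

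The 8 loci with the widest gap in favour of leaf were between 420 and 473 nt long. They are set out one by one because their reads were the most unequally shared between the tissues. They were chosen by these same values, so the values are a description. Positions are on contigs of the SHERM assembly. Cluster_17394, on contig CACSLK010027837.1 from 5406223 to 5406659, had 6874 and 13200 reads in leaf, against 0 and 0 reads in stage 6 haustorium. The lower leaf library had 936 CPM, at least 945-fold higher than the 3 reads that a count of 0 allows in the shallower haustorium library. This bound and those given below hold in CPM and not after TMM. After TMM the same leaf library had 538 CPM. This locus lies 22219 nt from the nearest annotated gene, SHERM_28002. In haustorium without a stage it had 5891 reads in replicate 1 and 2 reads in replicate 3, so that 1 haustorium library outside the comparison was close to the leaf level.

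Cluster_15625, on contig CACSLK010027829.1 from 1567735 to 1568169, had 507 and 643 CPM in leaf, against 1.32 and 0.719 CPM in stage 6 haustorium. Here the 2 haustorium libraries without a stage had 0.835 CPM in replicate 1 and 1746 CPM in replicate 3, and this last library was the highest of all 6. Cluster_4292, on contig CACSLK010011299.1 from 5688133 to 5688596, had 550 and 1099 reads in leaf and none in stage 6 haustorium, at least 75.6-fold higher in leaf by the same floor. It had 1067 reads in replicate 1 and none in replicate 3 of haustorium without a stage. Cluster_9084 overlaps the gene SHERM_18452 on contig CACSLK010020742.1 (1772986 to 1773456). Its reads numbered 477 and 10051 in leaf and 0 in both stage 6 haustorium libraries, at least 65.6-fold higher in leaf. The leaf libraries were themselves far apart at this locus, and haustorium replicate 1 without a stage had 13130 reads.

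At 3 of the 8 loci both haustorium libraries without a stage were also low. Cluster_6056, 605 nt from the gene SHERM_15801 on contig CACSLK010013932.1 (590059 to 590529), had 973 and 352 reads in leaf, against 0 and 0 in stage 6 haustorium, and 4 and 1 in haustorium without a stage. Leaf was at least 42.7-fold higher than the floor, and the unadjusted p of this locus in edgeR was 0.00033 with an adjusted p of 1. Cluster_15670, 998 nt from SHERM_25874 on contig CACSLK010027829.1 (2233547 to 2234013), had 4127 and 489 reads in leaf, against 0 and 3 in stage 6 haustorium, and 0 and 5 without a stage. Cluster_15370, 2964 nt from SHERM_25528 on contig CACSLK010027802.1 (469683 to 470102), had 142 and 110.1 CPM in leaf, against 0.660 and 1.73 CPM in stage 6 haustorium, and 0 and 0.294 CPM without a stage. At these loci all 4 haustorium libraries were near 0 and both leaf libraries were not. The eighth locus, Cluster_2957, lies on a contig without an annotated gene, CACSLK010007630.1 from 1203 to 1675, and had 412 and 4616 reads in leaf against 1 and 1 in stage 6 haustorium. Without a stage it had 1553 and 84 reads.

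Among the 8 loci with the widest gap in favour of stage 6 haustorium, lengths ran from 255 to 471 nt. Cluster_995, on contig CACSLK010001140.1 from 2677036 to 2677506, had 0 and 0 reads in leaf, against 2201 and 1522 reads in stage 6 haustorium, at least 536-fold lower in leaf. Cluster_13109, on contig CACSLK010027624.1 from 8871073 to 8871508, had 0 and 0 reads in leaf and 444 and 1447 in stage 6 haustorium, at least 359-fold lower in leaf. Both were nearly without reads in haustorium without a stage as well, with 2 and 1 reads at Cluster_995 and 3 and 0 reads at Cluster_13109. They were thus found in the stage 6 haustorium libraries and hardly elsewhere.

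Cluster_21463, 458 nt from the gene SHERM_05416 on contig CACSLK010031421.1 (3335346 to 3335766), had 0.680 and 0 CPM in leaf, against 995 and 106.6 CPM in stage 6 haustorium, and no read in haustorium without a stage. Cluster_8705 covers positions 1 to 255 of contig CACSLK010020067.1, which holds no annotated gene. It had 0.544 and 1.92 CPM in leaf, against 235 and 279 CPM in stage 6 haustorium, and 1.67 and 1.03 CPM without a stage. Cluster_16057, on contig CACSLK010027831.1 from 13838421 to 13838840, had no read in leaf and 145 and 173 in stage 6 haustorium (at least 60.9-fold lower in leaf), with 1 and 1 without a stage. Again the haustorium libraries without a stage sided with leaf.

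At the remaining 3 loci, a haustorium library without a stage had more reads than at the loci just described. Cluster_858, 92839 nt from the nearest gene on contig CACSLK010000984.1 (29069799 to 29070218), had 4 and 7 reads in leaf, against 604 and 1688 in stage 6 haustorium, and 909 and 2 without a stage. Cluster_24739, on contig CACSLK010034598.1 from 27142730 to 27143147, had 0.953 and 0.120 CPM in leaf, against 74.9 and 61.0 CPM in stage 6 haustorium, and 2.62 and 19.1 CPM without a stage. Cluster_9882, on contig CACSLK010020742.1 from 11821850 to 11822265, had none in leaf, against 82 and 159 in stage 6 haustorium (at least 56.0-fold lower in leaf), and 7 and 24 without a stage. All 16 loci kept their order after TMM and all 16 were called by DESeq2, whereas in edgeR their unadjusted p-values lay between 0.00033 and 0.0442 and each adjusted p was 1. These loci were chosen by their gaps in the same libraries, so the kept order and the DESeq2 calls were largely fixed in advance.

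**Figure D2:**
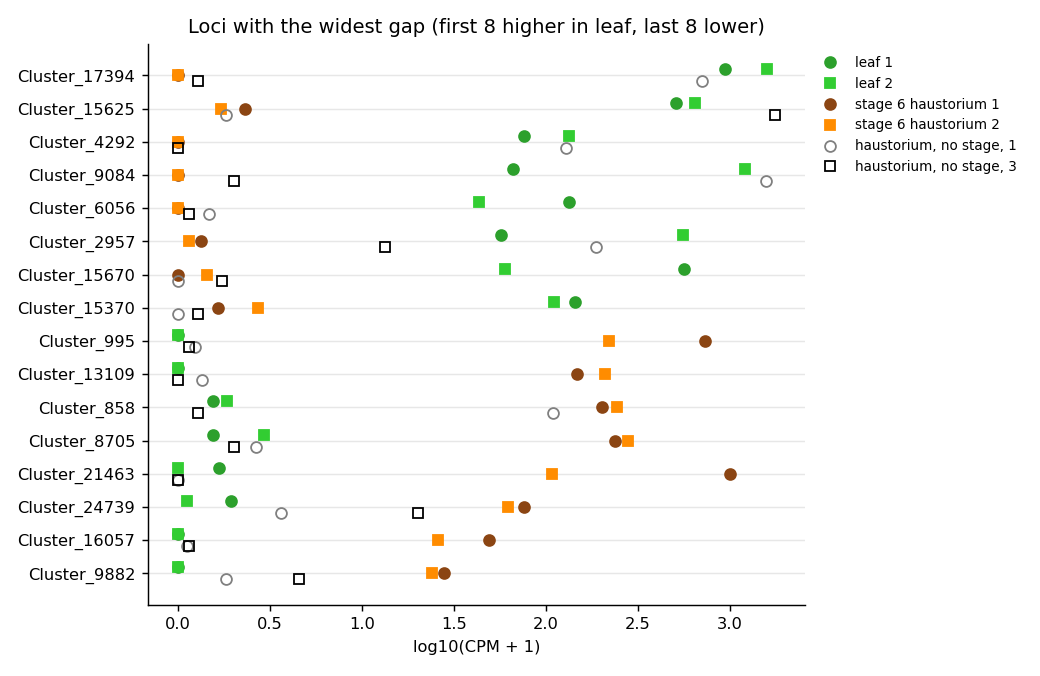
Level of each of the 16 loci with the widest gap, as log10(CPM + 1) on the horizontal axis, in the 2 leaf libraries (green), the 2 stage 6 haustorium libraries (brown and orange) and the 2 haustorium libraries without a stage (open grey and black). At 4 of the 8 loci high in leaf, a library without a stage reached the lower leaf library, and at 0 of the 8 loci low in leaf did one reach the lower stage 6 haustorium library.

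Loci with reads in 1 tissue only were also counted. At 63 loci both leaf libraries had at least 10 reads and both stage 6 haustorium libraries had none (background 0.251%). At 21 loci the reverse held (background 0.0838%). Pairing by replicate number gave 59 and 108 such loci, and the crossed pairing gave 246 and 124. The counts are not on equal terms, since a count of 0 allows up to 3 reads, which is 0.408 and 0.360 CPM in leaf but 0.989 and 0.432 CPM in stage 6 haustorium, for counting error only. Of the 63 loci, 11 overlap an annotated gene (17.5%), against 0 of the 21 and 11.4% of all loci not marked as *MIRNA*. In haustorium without a stage, 10 reads were reached by 34 of the 63 loci in replicate 1 (54.0%) and by 23 in replicate 3 (36.5%), against 85.4% and 73.1% of all loci not marked as *MIRNA*. Fewer than 10 reads in both were found at 22 of the 63 (34.9%), against 7.84% of all. For the 21 loci the numbers were 15 (71.4%) and 11 (52.4%). Both sets were thus read less often there than loci in general, although 41 of the 63 reached 10 reads in a haustorium library of that group. Both were chosen for libraries without reads, and their median CPM was 6.08 and 6.23, against 8.94 for all loci not marked as *MIRNA*. They were not compared with loci chosen alike from the other pairings, so the lower numbers are a description only.

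The 5 most abundant loci with both leaf libraries above were led by Cluster_13164, at positions 1 to 556 of contig CACSLK010027647.1, where it overlaps the gene SHERM_22696. It had 8525 and 12881 CPM in leaf, against 2903 and 2485 CPM in stage 6 haustorium, which is 3.97-fold higher on the means. The log2 fold change after TMM was 2.34 (standard error 1.33, edgeR adjusted p = 1). Haustorium without a stage had 15356 and 8808 CPM, at the level of leaf. Cluster_16001, on contig CACSLK010027831.1 from 11890476 to 11890921, had 10455 and 3413 CPM in leaf, against 1402 and 207 CPM in stage 6 haustorium, or 8.62-fold higher on the means. Without a stage it had 5494 and 4361 CPM. At both loci the stage 6 haustorium libraries were the lowest of the 6.

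Cluster_15163, 858 nt from the gene SHERM_25215 on contig CACSLK010027789.1 (528008 to 528480), had 5219 and 5186 CPM in leaf, against 3505 and 2925 CPM in stage 6 haustorium. Its leaf libraries were nearly equal in CPM, but after TMM the tissues overlapped. Cluster_23370, a locus of 1534 nt on contig CACSLK010034108.1 (4036113 to 4037646), had 1116 and 1596 CPM in leaf against 975 and 737 CPM in stage 6 haustorium, and also overlapped after TMM. Cluster_14545, 153 nt from SHERM_24465 on contig CACSLK010027752.1 (21349750 to 21350202), had 2052 and 530 CPM in leaf, against 0 and 481 CPM in stage 6 haustorium. Replicate 2 of stage 6 haustorium was close to leaf replicate 2 there, and replicate 1 had no read.

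Of the 5 most abundant loci with both leaf libraries below, 4 overlapped after TMM. Cluster_11977, which covers positions 1 to 2665 of contig CACSLK010025212.1, had 14682 and 11527 CPM in leaf, against 16354 and 15422 CPM in stage 6 haustorium, and 24057 and 24012 CPM without a stage. Cluster_1083, on contig CACSLK010001140.1 from 3907012 to 3907487, had 740 and 1629 CPM in leaf, against 2603 and 1637 CPM in stage 6 haustorium. Cluster_6888, of 1017 nt on contig CACSLK010015080.1 (788825 to 789841), had 1476 and 599.7 CPM in leaf, against 2067 and 1535 CPM in stage 6 haustorium. At these 2 loci the nearest libraries of the tissues were almost level.

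At the other 2 loci a leaf library had no read, and the leaf library with reads was also below both stage 6 haustorium libraries. Cluster_21243, on contig CACSLK010030927.1 from 16050 to 16519, had 2119 and 0 CPM in leaf, against 2900 and 2494 CPM in stage 6 haustorium. It was the 1 locus of these 5 still in order after TMM. Without a stage it had 0.358 CPM in replicate 1 and 13941 CPM in replicate 3. Cluster_14222, on contig CACSLK010027752.1 from 14011619 to 14012072, had 0 and 527 CPM in leaf, against 3566 and 957.5 CPM in stage 6 haustorium. None of these 10 loci was called by DESeq2, and each had an edgeR adjusted p of 1.

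**Figure D3:**
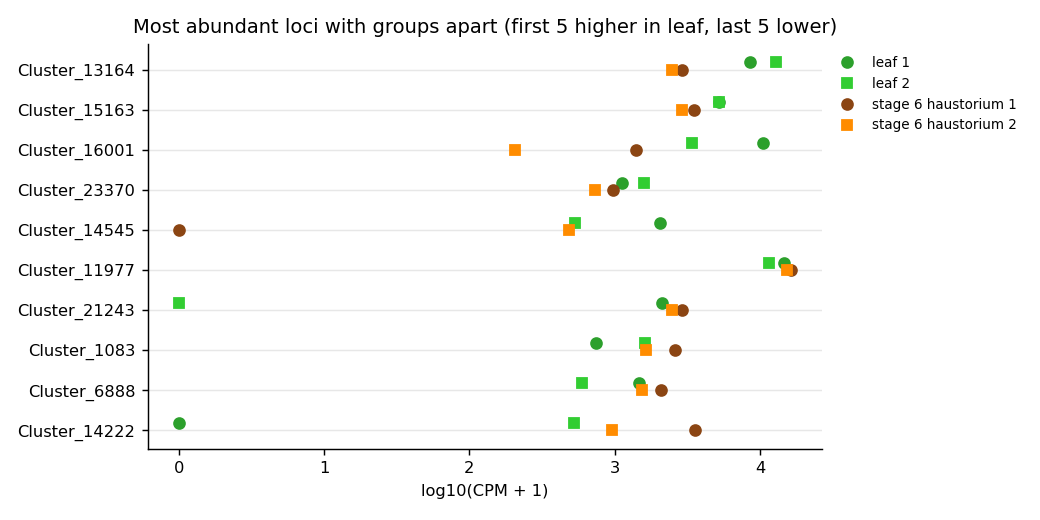
Level of the 5 most abundant loci with both leaf libraries above, and of the 5 with both below, as log10(CPM + 1) on the horizontal axis, in the leaf (green) and stage 6 haustorium libraries (brown and orange). Points at 0 are libraries without reads, as at Cluster_21243 in leaf replicate 2 and Cluster_14222 in leaf replicate 1.

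The most abundant loci of all, by mean CPM over the 4 libraries, overlapped between the tissues except for Cluster_11977, which was apart in CPM only. Cluster_18812, on contig CACSLK010028053.1 from 3400637 to 3401111, had 16799 and 53280 CPM in leaf, against 74853 and 23342 CPM in stage 6 haustorium. Cluster_13536, which overlaps SHERM_23235 on contig CACSLK010027752.1 (755126 to 755601), had 3494 and 27272 CPM in leaf, against 38970 and 2156 CPM in stage 6 haustorium. In both, leaf replicate 2 and stage 6 haustorium replicate 1 were high and the other pair was low. Cluster_4659, on contig CACSLK010011356.1 from 2686028 to 2686537, had 4358 and 27409 CPM in leaf, against 12945 and 14848 CPM in stage 6 haustorium. Cluster_997, on contig CACSLK010001140.1 from 2678763 to 2679777, had 5548 and 15863 CPM in leaf, against 9970 and 10649 CPM in stage 6 haustorium. At these 2 loci the leaf libraries lay on either side of haustorium.

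Loci with leaf above were more often short than loci in general in CPM, but hardly so after TMM, and another pairing also gave short loci. The length is that of the cluster of reads on the genome, not of the reads, whose sizes are not in the count files. The median was 418 nt for the 1186 loci with leaf above and 421 nt for the 2140 with leaf below, against 422 nt for all loci not marked as *MIRNA*. With leaf above after TMM it was 422 nt. The 1733 loci of the crossed pairing with leaf replicate 1 and stage 6 haustorium replicate 2 below had a median of 417 nt in CPM. Loci of exactly 415 nt, one of the commonest lengths, numbered 100 with leaf above (8.43% of that set) and 107 with leaf below, against 4.75% of all loci. Of the 935 loci of 800 nt or more, both leaf libraries lay above at 10 (1.07%) and below at 66 (7.06%). The matching shares were 6.20% and 9.30% of the 10486 loci under 420 nt, and 3.84% and 9.40% of the 5181 loci of 420 nt or up to 4 nt more, the lengths around the median. Of the 8386 longer loci under 800 nt, leaf was above at 327 and below at 612 (7.30%). The shares with leaf above after TMM were 12.7%, 12.1% and 12.8% in these classes under 800 nt, from short to long. After TMM the long loci were even in direction, with 57 above (6.10%) and 66 below (7.06%), and were the class least often apart by tissue. That class was not unusually steady, since the crossed pairing after TMM ordered 92 of the 935 long loci in 1 direction and 346 (37.0%) in the other.

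**Figure D4:**
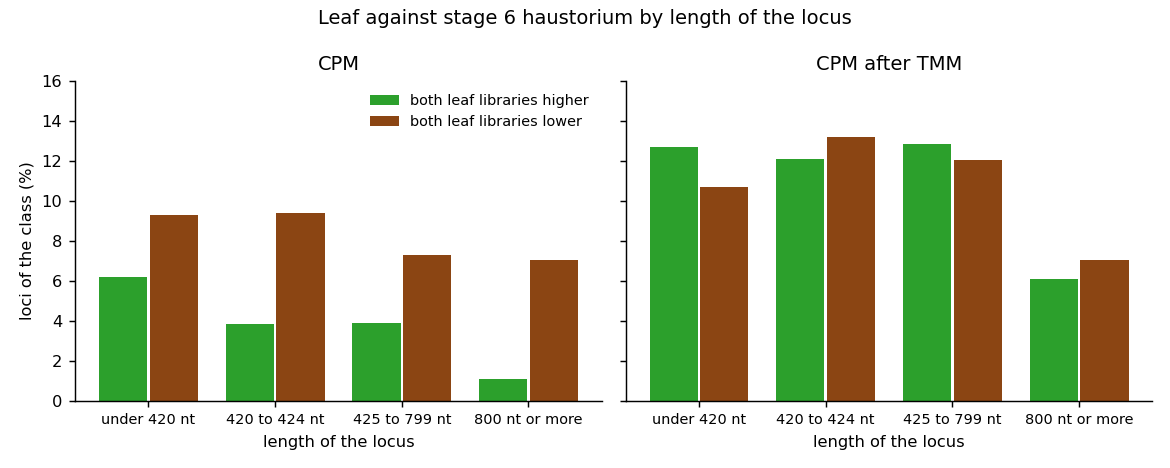
Share of the loci of each length class (vertical axis, %) with both leaf libraries above (green) or below (brown) both stage 6 haustorium libraries, in CPM (left) and in CPM after TMM (right). Loci of 800 nt or more had 1.07% above and 7.06% below in CPM, and 6.10% and 7.06% after TMM.

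In CPM, the only scale used for this choice, the longest loci with a gap of 2-fold or more were shorter on the leaf side. They were 769, 609 and 586 nt long where leaf was above, and 2977, 1414 and 1044 nt where leaf was below. Cluster_3252, the longest with leaf above, on contig CACSLK010008332.1 from 4264938 to 4265706, had 219 and 4443 reads in leaf, against 1 and 87 in stage 6 haustorium. Cluster_12766, on contig CACSLK010027624.1 from 1294577 to 1295185, had 562 and 19 reads in leaf, against 0 and 1. Cluster_10942, 149 nt from SHERM_20493 on contig CACSLK010024540.1 (6350660 to 6351245), had 46.8 and 60.9 CPM in leaf, against 1.32 and 10.2 CPM in stage 6 haustorium, and 0.477 and 0 CPM without a stage. The leaf libraries were near each other in CPM at the last of these, with 26.9 and 93.6 CPM after TMM, and far apart at the others. On the other side, Cluster_7832 overlaps the gene SHERM_01350 on contig CACSLK010016925.1 (5081850 to 5083263). It had 78.3 and 105 CPM in leaf, against 213 and 285 CPM in stage 6 haustorium, but overlapped after TMM.

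The other 2 of these long loci, Cluster_4408 and Cluster_4403, are neighbours of a kind. They bound a run of 6 consecutive loci, Cluster_4403 to Cluster_4408, at all of which both leaf libraries lay below both stage 6 haustorium libraries, in CPM and after TMM. The run covers 8271 nt of contig CACSLK010011313.1, from 1834753 to 1843023, between annotated genes, with the nearest gene, SHERM_13875, 11153 nt away. The loci are 402 to 2977 nt long and separated by 113 to 846 nt. Together they had 227 and 298 CPM in leaf, against 681 and 1036 CPM in stage 6 haustorium. After TMM these sums were 131 and 458 CPM in leaf, against 816 and 583 CPM. In haustorium without a stage they had 231 and 88.0 CPM, no higher than leaf replicate 2. In CPM the stretch was thus highest in the 2 stage 6 haustorium libraries, while after TMM leaf replicate 2 was nearer to stage 6 haustorium replicate 2 than to leaf replicate 1.

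Within the run, Cluster_4408 had 156 and 142 CPM in leaf, against 362 and 516 CPM in stage 6 haustorium, and 125 and 54.0 CPM without a stage. Its log2 fold change after TMM was -1.23 (standard error 0.83, edgeR adjusted p = 1). Cluster_4403 had 37.3 and 46.1 CPM in leaf, against 95.7 and 142 CPM in stage 6 haustorium. Cluster_4404 had 12.0 and 47.9 CPM in leaf, against 93.7 and 183 CPM. The next locus on either side, Cluster_4402 and Cluster_4409, overlapped between the tissues. It was the longest run of loci with leaf below, and the longest with leaf above had 3 loci in CPM. The other pairings gave runs of up to 10 loci by replicate number and 21 loci in the crossed pairing in CPM, and of up to 8 in each after TMM.

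**Figure D5:**
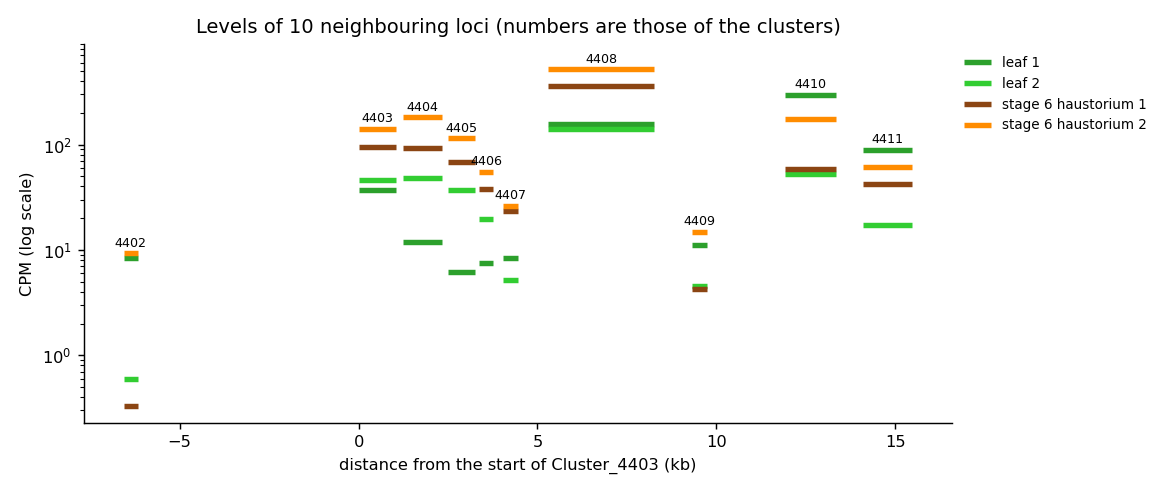
CPM (vertical axis, log scale) of 10 neighbouring loci by distance from the start of Cluster_4403 in kb, with each locus drawn as a bar of its own length in the leaf (green) and stage 6 haustorium libraries (brown and orange). From Cluster_4403 to Cluster_4408 both haustorium bars lie above both leaf bars, and at the 4 loci outside the run the tissues overlap.

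Positions of the loci with tissues apart were spread over the assembly. The 1186 loci with leaf above lay on 237 contigs and the 2140 with leaf below on 218, out of 1581 contigs that hold loci. On the 41 contigs with at least 200 loci, leaf was above at 2.25% to 7.98% of the loci of a contig and below at 6.10% to 13.5%. An annotated gene was overlapped by 144 of the loci with leaf above (12.1%) and by 226 with leaf below (10.6%), against 11.4% of all loci not marked as *MIRNA*. Contigs without an annotated gene held 9.78% of the loci with leaf above and 4.30% of those with leaf below, against 5.57% of all. After TMM these shares were 7.19% and 3.57%. Other pairings of the libraries gave similar contrasts in CPM, with 8.25% and 4.28% by replicate number and 4.47% and 8.89% in the crossed pairing. For loci between genes, the median distance to the nearest gene was 5468 nt where leaf was above and 2824 nt where it was below, against 3205 nt over all. After TMM the medians were 3577 and 2284 nt. The crossed pairing gave medians of 2529 and 10678 nt in CPM, so distances as far apart as those between the tissues also occurred in another pairing.

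Few pairs of neighbouring loci were ordered alike by tissue, but few loci were ordered by tissue at all (4.75% above and 8.56% below in CPM). The number of pairs to expect from these shares was not tested, so the counts are a description only. Of 6911 pairs of neighbouring loci at most 5000 nt apart, leaf was above at both loci in 16 pairs and below at both in 72, while 60 pairs were of opposite order. By replicate number the counts were 135, 96 and 122, and in the crossed pairing 2799, 28 and 320. After TMM the tissue pairing gave 100 pairs above, 129 below and 228 of opposite order. Pairing by replicate number then gave 293 above and 458 below, and the crossed pairing 335 and 260. Both also had more pairs of opposite order than the tissue pairing.

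Low abundance was more common where leaf was above, but not only in this pairing. The median of the mean CPM over the 4 libraries was 6.47 for loci with leaf above and 8.73 with leaf below, against 8.94 for all loci not marked as *MIRNA*. Pairing by replicate number gave 8.86 above and 7.59 below, and the crossed pairing gave 9.80 and 5.39. Of the 6247 loci with the lowest mean CPM, leaf was above at 8.39% and below at 8.68%, and of the 6247 with the highest at 2.75% and 7.38%. After TMM the lowest 6247 had 14.0% above and 8.90% below, and the highest 9.92% and 11.5%. The loci with leaf above held 6.00% and 5.45% of the counted reads in leaf, against 1.44% and 1.37% in stage 6 haustorium, which follows from how they were chosen. In haustorium without a stage, which took no part in the choice, the same loci held 4.92% and 3.93%. A few abundant loci carried much of this, with 1.54% and 0.881% at Cluster_13164, 0.549% and 0.436% at Cluster_16001, and 0.468% and 0.436% at Cluster_15163. The loci with leaf below held 4.33% and 3.35% in leaf, against 7.55% and 8.50% in stage 6 haustorium, and 6.46% and 6.30% without a stage. Of the shares without a stage, Cluster_11977 alone held 2.41% and 2.40%.

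Read by class of locus, the tissues did not separate. Of all counted reads, loci of 420 nt or up to 4 nt more took 4.91% ± 3.36 (SD, n = 2) in leaf and 5.09% ± 2.57 (SD, n = 2) in stage 6 haustorium (two-sided exact permutation test, p = 1). The libraries split by the crossed pairing, with 7.28% in leaf replicate 1 and 2.53% in leaf replicate 2, against 3.27% in stage 6 haustorium replicate 1 and 6.91% in replicate 2. Loci of 800 nt or more took 35.0% ± 8.39 (SD, n = 2) in leaf and 37.9% ± 6.20 (SD, n = 2) in stage 6 haustorium (two-sided exact permutation test, p = 0.667). For loci that overlap an annotated gene the shares were 23.6% ± 1.91 (SD, n = 2) in leaf and 22.2% ± 4.34 (SD, n = 2) in stage 6 haustorium (two-sided exact permutation test, p = 1). With 2 libraries a tissue, the 6 splits allow no p below 0.333 in this test. These 3 shares were tested as a family, and none passed before adjustment.

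Among the 68 *MIRNA* loci, both leaf libraries lay above at 7 and below at 3 in CPM (over all loci, 4.76% and 8.55%), and above at 11 and below at 1 after TMM (over all loci, 12.4% and 11.5%). Pairing by replicate number gave 20 and 7 in CPM and 15 and 9 after TMM, and the crossed pairing 22 and 9 in CPM and 4 and 28 after TMM. The 1 locus with a gap of 2-fold or more in CPM was Cluster_20547, on contig CACSLK010030184.1 from 19814535 to 19814761, which is 3519 nt from the gene SHERM_04410. It had 119 and 92.2 CPM in leaf, against 23.7 and 24.2 CPM in stage 6 haustorium, and 56.8 and 8.10 CPM without a stage. Its log2 fold change after TMM was 2.33 (standard error 1.03, edgeR adjusted p = 1).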

How the data were processed

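The authors trimmed adapters and ran ShortStack on the SHERM assembly, with its defaults for finding new *MIRNA* loci. The example command of the paper's supplement, given for *Arabidopsis thaliana*, trims the reads within ShortStack. The deposited values are raw counts, 1 per locus and library, beside coordinates and a *MIRNA* mark. How ShortStack aligned the reads, and where it placed reads that match several positions, is not stated in the sources used here. The paper describes such reads as frequent in small RNA data. Their part in the counts, also in counts of 0, was not tested. A count of 0 at a locus therefore does not show that its small RNA was absent from a tissue. Counts were used as deposited, with the sum over the 25056 loci (3031863 to 8381235 per library) as depth, and CPM was computed on that sum. Reads outside the loci were not analysed here. The floor for a count of 0 covers counting error alone, as PCR copies could not be told from separate molecules.

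Leaf was tested against stage 6 haustorium in R 4.3.3 by the quasi-likelihood test of edgeR 4.0.16 (TMM, filterByExpr, Benjamini-Hochberg, threshold 0.05) on all 6 libraries in 3 groups, with 3 residual degrees of freedom. DESeq2 1.42.0, other scales, filters, a replicate block and leaving out libraries were the alternatives. Orders of libraries were counted without a test. The TMM factors are those of this fit. Named loci were the 5 most abundant, the 8 with the widest gap, the 5 most abundant apart and the 3 longest apart by 2-fold in each direction, loci called by edgeR, and *MIRNA* loci apart by 2-fold. The members and lists were chosen with earlier results of these data known. Genes came from a table of 29520 genes of the SHERM assembly, matched by contig and coordinates; distances are nt between the features. No genome sequence was used here, so no sequence is printed. Tables were handled with pandas 2.3.3 and numpy 2.4.6, permutations with scipy 1.17.1, and figures with matplotlib 3.10.9, all in Python 3.11.15.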

Additional observations from a re-analysis of the deposited data

How the results depend on the processing

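The number of loci with both leaf libraries above was 1186, and 3089 after TMM, 290 with a mean of at least 10 CPM, 288 with a 2-fold gap and 97 with a 4-fold gap. With both leaf libraries below, the 2140 loci became 862 with that mean, 341 with a 2-fold gap and 99 with a 4-fold gap. Leaving out 1 library, which leaves fewer conditions to meet, gave 2395 to 10948 loci above and 3381 to 11793 below. Without leaf replicate 1 and stage 6 haustorium replicate 2 together, the 2 libraries with the highest TMM factors, 10564 lay above and 13785 below. That setting, the scale without the 10 most abundant loci (1287 above, 2656 below) and the crossed block were chosen after seeing the data.

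In the test, edgeR called 0 loci in every alternative, also with each library left out, whereas DESeq2 called 114; the cause was not tested. The replicate block, with 1 residual degree of freedom, called 0 loci, as did the crossed block. Over the loci, the difference between replicates 1 and 2 in leaf correlated at -0.12 with that in stage 6 haustorium. With 1 such difference per tissue, this cannot show whether the replicate numbers pair the libraries. Where 1 library of a tissue was left, it was assumed to vary like the other groups. The median log2 fold change of loci not marked as *MIRNA* was 0.05, and -0.11 with library totals only. It ran from -0.11 (without leaf replicate 1) to 0.28 (without stage 6 haustorium replicate 2).

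The difference of leaf minus stage 6 haustorium in the share of reads turned sign when 1 library was left out, within -2.56 to 2.19 percentage points for loci of 420 nt or up to 4 nt more, -8.81 to 3.06 for loci of 800 nt or more and -1.65 to 4.49 for loci that overlap a gene. Most named loci were chosen by this same contrast, so a kept sign was largely fixed in advance. Of the 37 named loci, 29 kept the sign of their fold change in all 6 alternatives. The others turned when 1 library was left out, with Cluster_18812 at -2.42 to 1.80, Cluster_13536 at -3.59 to 4.18, Cluster_4659 at -2.26 to 1.82, Cluster_11977 at -0.75 to 0.59, Cluster_997 at -1.50 to 1.44, Cluster_23370 at -0.31 to 1.90, Cluster_1083 at -2.26 to 0.67 and Cluster_6888 at -1.49 to 0.030. All 5 of the most abundant loci, which were named by abundance alone, are among those that turned. The causes were not tested.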

Other observations

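Loci lying side by side had their reads in different libraries. Cluster_994, Cluster_995, Cluster_996 and Cluster_997 follow each other on contig CACSLK010001140.1, and Cluster_994 and Cluster_996 were chosen after their values were seen. Cluster_994 (2675131 to 2675602) had 1 and 5290 reads in leaf, against 0 and 0 in stage 6 haustorium, and 4 and 0 in haustorium without a stage. Cluster_995 had 0 and 0 reads in leaf, against 2201 and 1522 in stage 6 haustorium, and 2 and 1 without a stage. Cluster_996 (2677922 to 2678394) had 51 and 0 reads in leaf, against 58 and 142 in stage 6 haustorium, and 488 and 80 without a stage. Cluster_997, 1256 nt after the end of Cluster_995, had 40769 and 132156 reads in leaf, against 30228 and 74034 in stage 6 haustorium, and 138566 and 106409 without a stage. Cluster_994 was thus read mainly in leaf replicate 2, Cluster_995 mainly in the stage 6 haustorium libraries and Cluster_997 in all 6.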
